A study of Homo sapiens with 6 samples.

Results

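The 10 genes described here, TFF1, TFF2, TFF3, AGR2, AGR3, PSCA, GKN1, GKN2, ANXA10 and CTSE, are genes of gastric surface mucous (pit) cells, of the trefoil peptide family and of mucus secretion. Each was taken as the transcript cluster paired with exactly 1 gene symbol, and all 10 had 1 such cluster among the 18417 genes with a tested cluster. The cells were AGS, an established line from a human gastric adenocarcinoma. They received either CTNNB1 siRNA, aimed at the transcript of beta-catenin, or control siRNA, and RNA was taken 48 hours later. Both groups therefore share the cell line, the transfection and the time, and no untransfected cells are among the samples. Each group held 3 Affymetrix Human Gene 1.0 ST arrays that the titles call biological replicates.

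Surface mucous cells line the gastric lumen and secrete the mucus gel that shields the epithelium. They pack gel-forming mucins together with small secreted proteins, the trefoil peptides and gastrokines, and a protein disulphide isomerase of the endoplasmic reticulum, AGR2, is needed for mucins to fold. In the stomach TFF1 belongs to pit cells and TFF2 to mucous neck cells, while TFF3 is the trefoil peptide of intestinal goblet cells.

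The silenced gene matched the labels. CTNNB1 had log2 levels of 10.27, 10.78 and 10.58 in CTNNB1 siRNA cells, against 11.92, 11.76 and 11.75 in control siRNA cells, which is 41.5% of the control level (95% confidence interval 31.8% to 54.2%). The groups were fully apart, and its adjusted p in limma, the linear model used below, was 0.232, so the silenced gene itself did not pass the threshold of 0.05. One array, CTNNB1 siRNA replicate 1, was less like all others, with Pearson correlations across all clusters of 0.962 to 0.965 against 0.983 to 0.988 for the remaining pairs, so values without it are given below wherever a result rests on it. Of 5 epithelial markers, all were above the 40% of clusters with the lowest mean, which are called dim here, and of 10 markers of immune, endothelial and fibroblast cells, 9 were dim. The summed log2 level of those 10 markers was 40.3 to 41.6 in CTNNB1 siRNA cells and 39.2 to 40.4 in control siRNA cells, and its part in any result was not tested. PECAM1, an endothelial adhesion gene, differed by 0.39 (SE 0.15) and was dim. COL1A1, a collagen gene, differed by 0.36 (SE 0.16), or 0.26 without CTNNB1 siRNA replicate 1. Both had the groups apart. Other endothelial and fibroblast markers, named here outside the rule for named genes, did not share this. VWF differed by -0.16 (SE 0.13) with the groups apart, while CDH5 (0.13), LUM (-0.071) and DCN (0.0050) overlapped. The 5 epithelial markers were all higher, with a median log2 difference of 0.49, or 0.25 without CTNNB1 siRNA replicate 1. EPCAM and CDH1, named here to complete this list, differed by only 0.13 (SE 0.14) and 0.016 (SE 0.22), both with overlap. Without CTNNB1 siRNA replicate 3 CDH1 differed by -0.16, so the larger differences were those of the keratin genes. KRT19 differed by 0.96 (SE 0.36) with the groups apart, KRT18 by 0.49 (SE 0.24) and KRT8 by 0.51 (SE 0.26), each a keratin gene of simple epithelia, and without CTNNB1 siRNA replicate 1 by 0.54, 0.25 and 0.22. The summed log2 level of these 5 was 52.4 to 54.9 in CTNNB1 siRNA cells and 50.7 to 52.1 in control siRNA cells, so it moved with the siRNA, and its part in the results below was not tested. Each array measures the RNA of a whole culture, so a change in the share of cells that express a gene and a change in RNA per cell cannot be told apart.

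The genes fell into 3 patterns. TFF1, PSCA, AGR2 and ANXA10 had all 3 CTNNB1 siRNA arrays above all 3 controls, by 1.55-fold to 3.46-fold on average. CTSE was bright on all arrays and overlapped between the groups. TFF2, TFF3, AGR3, GKN1 and GKN2 overlapped as well, and 4 of those 5 were dim. In limma, a linear model fitted across 19460 clusters with Benjamini-Hochberg adjustment, 0 of the 10 genes passed an adjusted p of 0.05, where 0.00514% of all clusters did. At an unadjusted p under 0.05 there were 4 of 10, all higher, beside 5.64% of all clusters, made up of 3.04% higher and 2.6% lower. Groups did not overlap, with CTNNB1 siRNA higher, for the same 4 of 10, beside 6.81% of all clusters, and none of the 10 had CTNNB1 siRNA fully lower, beside 6.8%. The 10 genes and the lists below were chosen with earlier results of these data known. Their counts beside these shares are thus a description and not a test. The median log2 difference of the 10 genes was 0.18, beside -0.0045 over all tested clusters. Of all clusters 49.2% were higher. When 1 array was left out the median lay between 0.067, without CTNNB1 siRNA replicate 3, and 0.28, without CTNNB1 siRNA replicate 2. It was 0.21 without CTNNB1 siRNA replicate 1, where the same 4 genes had an unadjusted p under 0.05 beside 7.34% of clusters in that fit. Without CTNNB1 siRNA replicate 3 or control siRNA replicate 3 there were 3 such genes, with ANXA10 no longer among them, beside 5.65% and 3.95% of clusters.

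**Figure D1:**
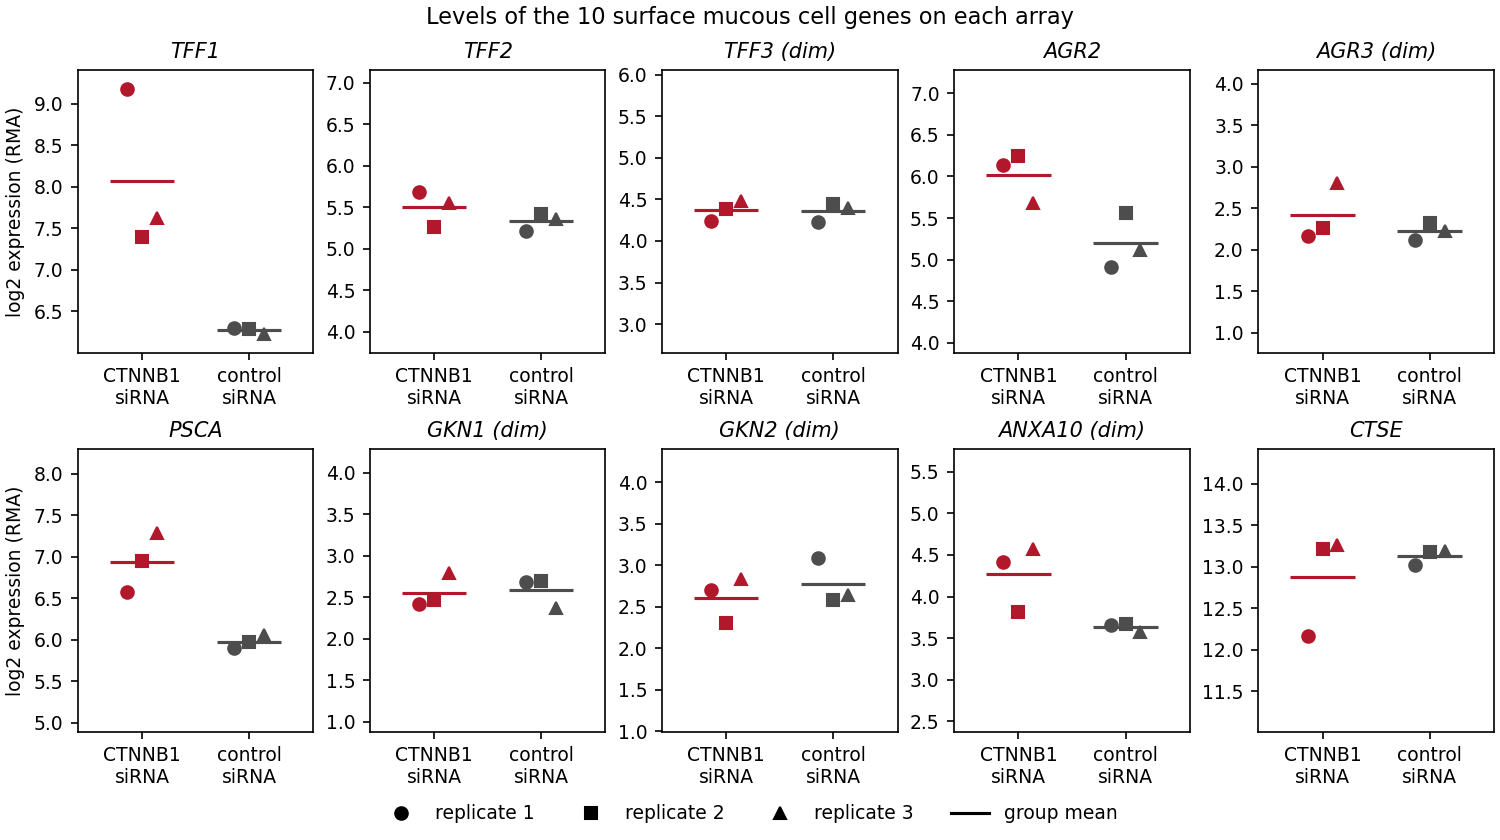
Log2 expression (vertical axis, a span of equal height in every panel) of the 10 genes on each array, CTNNB1 siRNA left and control siRNA right; symbols mark the replicate, horizontal lines the group mean, and dim marks clusters among the 40% with the lowest mean. TFF1, AGR2, PSCA and ANXA10 show no overlap, and CTNNB1 siRNA replicate 1 is the highest array for TFF1 (9.17) and the lowest for CTSE (12.17).

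TFF1 encodes a trefoil peptide that pit cells release with mucus. Its log2 levels were 9.17, 7.39 and 7.63 in CTNNB1 siRNA cells, against 6.30, 6.29 and 6.23 in control siRNA cells. All 3 CTNNB1 siRNA arrays lay well above the controls, which differed little among themselves, and replicate 1 exceeded the other CTNNB1 siRNA arrays. The group means were 8.07 ± 0.97 and 6.27 ± 0.038 (SD, n = 3 each), a log2 difference of 1.79 (SE 0.41) or 3.46-fold, with an adjusted p of 0.816 in limma. Without CTNNB1 siRNA replicate 1 the difference was smaller, 1.24, and its adjusted p in limma was 0.0336, one of 10 calls in that fit (0.0514% of clusters). Over the other fits that leave out 1 array the difference was 1.77 to 2.13 and was not called.

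TFF2, the trefoil peptide of mucous neck cells, had log2 levels of 5.68, 5.26 and 5.55 in CTNNB1 siRNA cells, against 5.21, 5.42 and 5.36 in control siRNA cells. The groups overlapped, with a log2 difference of 0.17 (95% confidence interval -0.20 to 0.53). It was 0.075 without CTNNB1 siRNA replicate 1 and 0.29 without replicate 2. A difference the size of that of TFF1 lies outside the interval over 6 arrays. TFF3, the goblet cell trefoil peptide, was dim at 4.24, 4.39 and 4.48 in CTNNB1 siRNA cells, against 4.23, 4.44 and 4.40 in control siRNA cells. Its log2 difference was 0.016 (95% confidence interval -0.31 to 0.34), and a small difference of a dim cluster does not show that the transcript was unchanged.

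The 3 trefoil genes lie side by side on chromosome 21 in the order TFF3, TFF2, TFF1. The gap between the log2 levels of TFF1 and TFF2 was 3.49, 2.14 and 2.08 in CTNNB1 siRNA cells, against 1.09, 0.87 and 0.87 in control siRNA cells. It was thus wider on every CTNNB1 siRNA array, by 1.62 (SE 0.47), or 1.16 without CTNNB1 siRNA replicate 1, with an exact 2-sided permutation p of 0.1, the smallest that 3 arrays against 3 allow, and 0.25 when adjusted over the 5 pairs of neighbouring family members compared. The gap between TFF1 and TFF3 was wider by 1.78, or 1.16 without CTNNB1 siRNA replicate 1, with the same exact permutation p of 0.1, adjusted 0.25. TFF3 was dim and TFF2 lay just above the dim limit, so the sizes of both gaps are uncertain. Likewise uncertain in size, the gap between TFF3 and TFF2 differed by -0.15 (exact permutation p = 0.6), or 0.0045 without that replicate. The nearest tested protein-coding genes on either side, taken by position and outside the rule for named genes, were ABCG1, a cholesterol transporter gene, beyond TFF3 and TMPRSS3, a transmembrane serine protease gene, beyond TFF1. ABCG1 differed by 0.19 (SE 0.13) with the groups apart and TMPRSS3 by -0.029 (SE 0.13) with overlap, both dim. TFF1 was thus the 1 gene of these 5 with a log2 difference above 1, though not the only one with the groups apart.

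AGR2, the disulphide isomerase required for mucin assembly, had log2 levels of 6.14, 6.25 and 5.68 in CTNNB1 siRNA cells, against 4.91, 5.56 and 5.11 in control siRNA cells. The groups did not overlap, though CTNNB1 siRNA replicate 3 lay just above control siRNA replicate 2. The group means were 6.02 ± 0.30 and 5.20 ± 0.33 (SD, n = 3 each), a log2 difference of 0.83 (SE 0.22) or 1.77-fold, with an adjusted p of 0.816 in limma. Leaving out 1 array moved the difference between 0.68 and 1.01 without a call, and without CTNNB1 siRNA replicate 1 it was 0.77.

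AGR3, its neighbour on chromosome 7 and closest paralog, known from multiciliated airway cells, was dim at 2.17, 2.27 and 2.80 in CTNNB1 siRNA cells, against 2.12, 2.33 and 2.23 in control siRNA cells. The groups overlapped, the difference was 0.19 (SE 0.19), and it was -0.0066 without CTNNB1 siRNA replicate 3, the 1 array that lay apart. The gap between AGR2 and AGR3 was wider by 0.64 (SE 0.39) in CTNNB1 siRNA cells, of uncertain size since AGR3 was dim, with an exact permutation p of 0.3, adjusted 0.5. On the other side of AGR2 lies TSPAN13, a tetraspanin gene named here for its position. It had log2 levels of 10.11, 9.38 and 9.07 in CTNNB1 siRNA cells, against 8.79, 9.13 and 8.95 in control siRNA cells, a difference of 0.56 (SE 0.26) with overlapping groups, and of 0.27 without CTNNB1 siRNA replicate 1, its highest array.

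**Figure D2:**
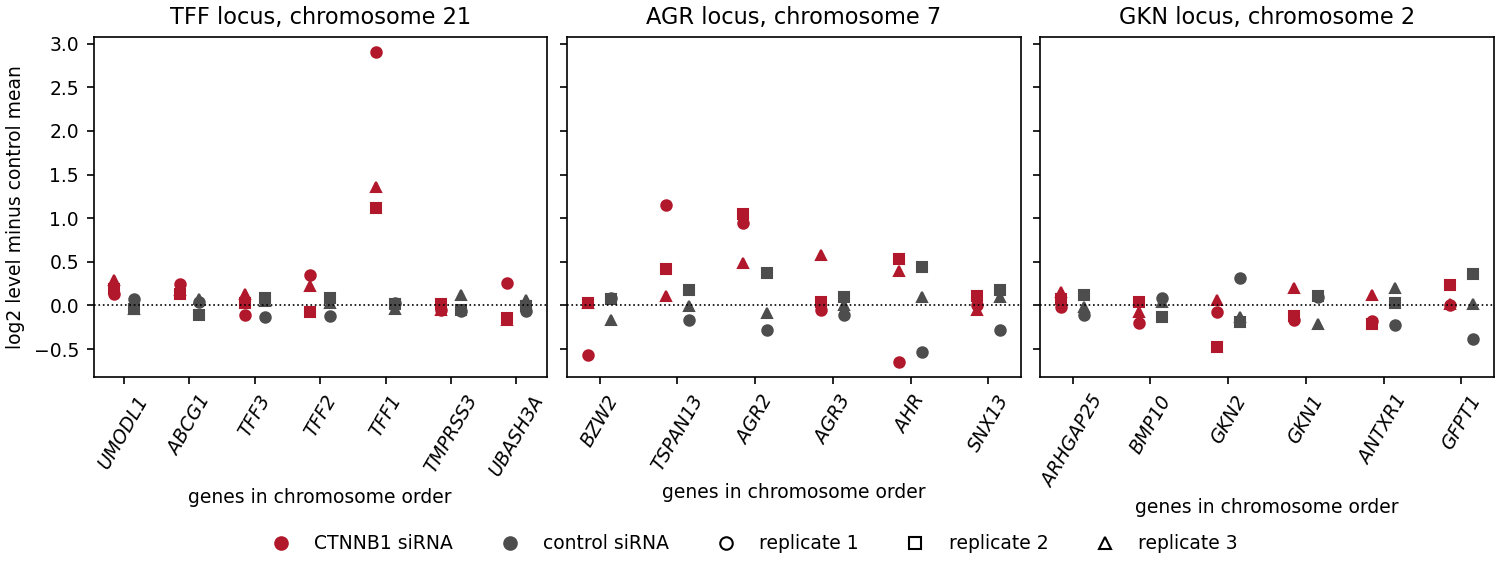
Log2 level minus the control mean (vertical axis) on each array for the trefoil, AGR and gastrokine genes and the nearest tested protein-coding genes on either side, in chromosome order (horizontal axis); colour marks the siRNA and symbols the replicate. At the trefoil locus the CTNNB1 siRNA points of TFF1 stand apart from those of TFF2 and TFF3, and at the gastrokine locus all points scatter around 0.

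The stretches before the start sites of AGR2, AGR3 and ANXA10 are shown because AGR2 and ANXA10 were both higher with CTNNB1 siRNA without overlap, and AGR3 is the neighbouring paralog that overlapped between the groups. Each is the 250 bases upstream of the RefSeq start site in GRCh38.p14, written 5′ to 3′ on the gene's strand. They are chr7:16805000-16805249 (minus strand) for AGR2, chr7:16881984-16882233 (minus strand) for AGR3 and chr4:168092287-168092536 (plus strand) for ANXA10. Capitals mark matches on either strand to 5 motifs, named below. TFF1 and PSCA, which also did not overlap between the groups, have no window here.

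AGR2: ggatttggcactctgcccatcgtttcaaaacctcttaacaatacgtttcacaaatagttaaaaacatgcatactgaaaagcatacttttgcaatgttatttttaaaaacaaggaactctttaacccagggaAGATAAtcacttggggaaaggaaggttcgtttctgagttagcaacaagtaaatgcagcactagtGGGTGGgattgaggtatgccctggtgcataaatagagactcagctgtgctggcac
AGR3: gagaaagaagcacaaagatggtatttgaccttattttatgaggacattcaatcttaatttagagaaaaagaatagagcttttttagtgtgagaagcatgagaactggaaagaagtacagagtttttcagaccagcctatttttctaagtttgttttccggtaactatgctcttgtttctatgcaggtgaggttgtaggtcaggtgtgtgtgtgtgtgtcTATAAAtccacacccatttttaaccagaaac
ANXA10: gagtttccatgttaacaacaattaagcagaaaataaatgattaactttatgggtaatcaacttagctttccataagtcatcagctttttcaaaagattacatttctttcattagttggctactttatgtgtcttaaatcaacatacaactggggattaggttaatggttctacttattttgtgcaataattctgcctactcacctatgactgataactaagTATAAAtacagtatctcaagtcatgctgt

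AGR2 held the GATA motif AGATAA 119 to 114 bases before the start and the KLF motif CCACCC, read on the opposite strand, 55 to 50 bases before it. AGR3 and ANXA10 held the TATA box TATAAA, 31 to 26 and 29 to 24 bases before the start. The TCF/LEF motif CTTTGAT, the letters bound by the DNA-binding partners of beta-catenin, and the forkhead motif TGTTTAC were in none of the 3 windows. Over all 35116 promoters of the same length, 9.17% held AGATAA, 31.3% CCACCC, 10.7% TATAAA, 2.26% CTTTGAT and 2.98% TGTTTAC on either strand. No matches in the 3 windows overlapped each other. Each motif was searched only as the exact letters given, so other spellings of a motif stayed unmarked in all windows. These matches describe letters in a window and say nothing of binding.

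PSCA, a small glycosylphosphatidylinositol-anchored surface protein of the LY6 family, had log2 levels of 6.58, 6.95 and 7.29 in CTNNB1 siRNA cells, against 5.90, 5.98 and 6.06 in control siRNA cells. The groups were well apart, and here CTNNB1 siRNA replicate 1 was the lowest of the 3. The group means were 6.94 ± 0.36 and 5.98 ± 0.080 (SD, n = 3 each), a log2 difference of 0.96 (SE 0.19) or 1.95-fold, with an adjusted p of 0.747 in limma, the smallest of the 10 genes. With arrays weighted by their quality, where CTNNB1 siRNA replicate 1 received a weight of 0.226, its difference was 1.07 and its adjusted p in limma 0.0491, 1 of 13 calls in that fit (0.0668% of clusters). Without that replicate the difference was 1.14 and the adjusted p in limma 0.0658.

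Among 14 other LY6 family genes, 11 were higher, beside 49.2% of all clusters, 3 were lower and 0 passed limma over all clusters. The median log2 difference was 0.079, and 1 gene had an unadjusted p under 0.05 in limma, beside 5.64% of all clusters. That gene was LYPD6B, with a log2 difference of 0.54 (SE 0.20), or 0.35 without control siRNA replicate 1. CD59, an inhibitor of complement, differed by 0.29 (SE 0.13) with the groups apart, and LY6E by 0.33 (SE 0.25) with overlap and 0.035 without CTNNB1 siRNA replicate 1.

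ANXA10, an annexin expressed mainly in gastric epithelium, was dim, at 4.42, 3.81 and 4.58 in CTNNB1 siRNA cells, against 3.66, 3.67 and 3.57 in control siRNA cells. The groups did not overlap, and CTNNB1 siRNA replicate 2 lay close to the controls. Its log2 difference was 0.64 (SE 0.21) or 1.55-fold, with an adjusted p of 0.816 in limma, and differences of dim clusters are compressed by the array's summarisation. Leaving out 1 array gave 0.48 to 0.86. Of 10 other annexin genes, 6 were higher, beside 49.2% of all clusters, 4 were lower and 0 passed, with a median of 0.054. At an unadjusted p under 0.05 in limma there was 1, beside 5.64% of all clusters. That one was ANXA4, an annexin of secretory epithelia, at 10.50, 10.05 and 10.06 in CTNNB1 siRNA cells, against 9.29, 9.61 and 9.47 in control siRNA cells. ANXA2 differed by 0.35 (SE 0.16), also with the groups apart, or 0.22 without CTNNB1 siRNA replicate 1, and ANXA6 by -0.38 (SE 0.24) with overlap, or -0.11 without CTNNB1 siRNA replicate 1.

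CTSE, the intracellular aspartic protease cathepsin E of gastric surface cells, was brighter than 99.9% of tested clusters. Its log2 levels were 12.17, 13.22 and 13.26 in CTNNB1 siRNA cells, against 13.02, 13.17 and 13.19 in control siRNA cells. CTNNB1 siRNA replicate 1 was the lowest array, and replicates 2 and 3 were above all controls. The log2 difference was -0.25 (SE 0.28) over 6 arrays and 0.11 without that replicate, so its sign rested on 1 array. CTSE and TFF1 thus both had their most distant value on that array, in opposite directions.

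Among 17 measured genes of the other cathepsins and aspartic proteases, 12 were higher, 5 lower and 0 passed, with 3 at an unadjusted p under 0.05 and a median of 0.21, beside 49.2% of all clusters higher and 5.64% at that p. CTSH, a lysosomal aminopeptidase, was 10.06, 9.72 and 9.73 in CTNNB1 siRNA cells, against 9.05, 9.41 and 9.26 in control siRNA cells, a log2 difference of 0.60 (SE 0.16). CTSS differed by 0.61 (SE 0.18), dim, and CTSB, a lysosomal cysteine protease, by 0.38 (SE 0.16), or 0.25 without CTNNB1 siRNA replicate 1. All 3 had the groups apart. Without CTNNB1 siRNA replicate 1 CTSH differed by 0.49 and CTSS by 0.45, and the list median was 0.16. CTSC, named here because it went the other way, was fully lower at -0.38 (SE 0.17), or -0.23 without that replicate. Over all clusters 6.81% were fully higher and 6.8% fully lower.

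The gastrokines GKN1 and GKN2 are secreted proteins of pit cells with a BRICHOS domain, and GKN2 pairs with TFF1. Both were dim, in the lowest 5% of tested clusters. GKN1 was 2.42, 2.46 and 2.79 in CTNNB1 siRNA cells, against 2.68, 2.69 and 2.37 in control siRNA cells. GKN2 was 2.70, 2.30 and 2.83 in CTNNB1 siRNA cells, against 3.09, 2.58 and 2.64 in control siRNA cells. Both overlapped, with log2 differences of -0.027 (SE 0.17) and -0.16 (SE 0.20), and at this brightness no direction can be read. Of 6 other BRICHOS genes, 3 were higher and 3 lower, and 5 were dim. Of these 6, 0 passed limma or had an unadjusted p under 0.05, beside 5.64% of all clusters at that p.

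**Figure D3:**
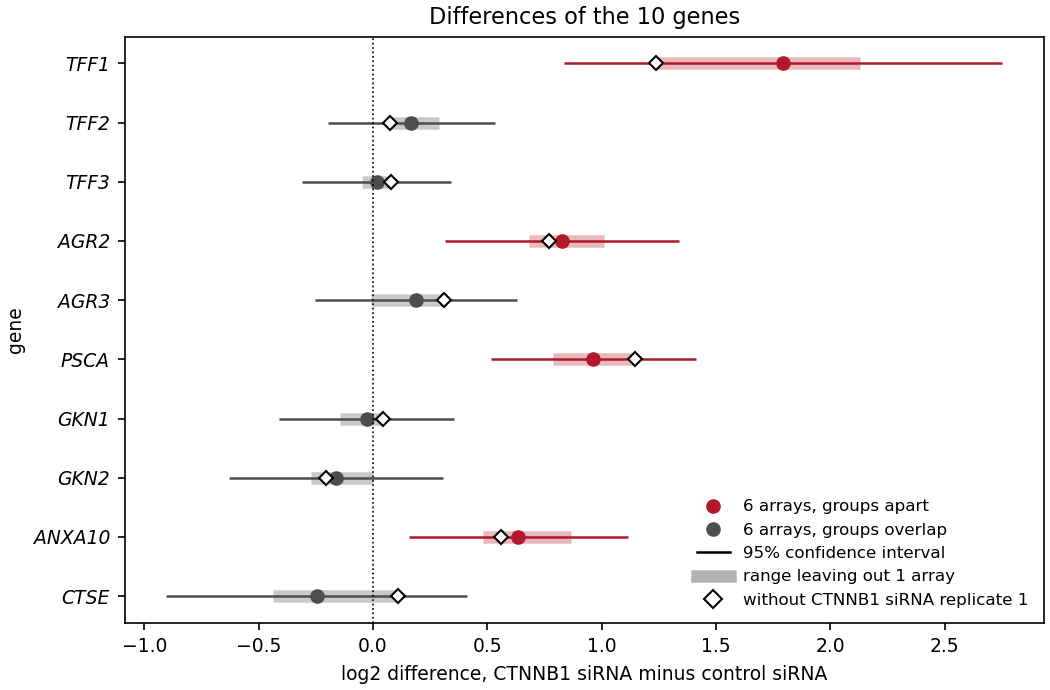
Log2 difference, CTNNB1 siRNA minus control siRNA (horizontal axis), of the 10 genes (vertical axis) with 95% confidence intervals from limma (thin lines), the range when any 1 array is left out (thick bars) and the value without CTNNB1 siRNA replicate 1 (open diamonds). The intervals of TFF1, AGR2, PSCA and ANXA10 lie above 0 before adjustment, and the diamond of CTSE (0.11) lies on the other side of 0 from its value over 6 arrays (-0.25).

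Other genes of surface mucous cells were described from a list of 16, of which 13 had a tested cluster; MUC5AC, the pit cell mucin gene, is not analysed here. Of the 13, 11 were higher, 2 lower and 0 passed limma, with 4 at an unadjusted p under 0.05 and 5 fully higher. Over all clusters 49.2% were higher, 5.64% had an unadjusted p under 0.05 and 6.81% were fully higher. The median was 0.23, or 0.40 without CTNNB1 siRNA replicate 1. MUC1, a transmembrane mucin, was 11.10, 11.01 and 11.21 in CTNNB1 siRNA cells, against 10.01, 10.45 and 10.41 in control siRNA cells, a log2 difference of 0.82 (SE 0.16). TSPAN1, an epithelial tetraspanin, was 7.04, 7.61 and 7.31 in CTNNB1 siRNA cells, against 5.71, 6.67 and 6.46 in control siRNA cells, a difference of 1.04 (SE 0.27). TSPAN8, another tetraspanin, differed by 0.47 (SE 0.14). GCNT3, which branches mucin O-glycans and is named although the rule gave 3 genes per list, differed by 0.90 (SE 0.32), or 0.52 without control siRNA replicate 1, its lowest array.

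Genes that run mucus secretion were described from a further list, and whether it differs from the list above was not tested. The list had 14 measured genes, mostly transcription factors, stress sensors and glycosyltransferases. Of these, 8 were higher and 6 lower, with a median of 0.057, or -0.0039 without CTNNB1 siRNA replicate 1. Among them 0 passed limma, 0 had an unadjusted p under 0.05 and 2 were fully higher. Over all clusters 49.2% were higher, 5.64% had an unadjusted p under 0.05 and 6.81% were fully higher. QSOX1, a secreted sulphydryl oxidase, differed by 0.41 (SE 0.19) and XBP1, a transcription factor of secretory cells, by 0.42 (SE 0.20), both with the groups apart, and by 0.25 and 0.22 without CTNNB1 siRNA replicate 1. FOXA1, a forkhead factor of foregut epithelium, differed by -0.57 (SE 0.36) with overlap, or -0.19 without CTNNB1 siRNA replicate 1. Of 15 other protein disulphide isomerase genes, the family of AGR2, 8 were higher and 7 lower, with a median of 0.047. Of these 15, 0 passed limma and 0 had an unadjusted p under 0.05, beside 5.64% of all clusters at that p. TMX2 differed by -0.53 (SE 0.24), PDIA4 by 0.28 (SE 0.17) and PDIA6 by 0.59 (SE 0.42). Without CTNNB1 siRNA replicate 1, where PDIA6 reached 12.85, these were -0.26, 0.11 and 0.033.

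Among 7 measured receptors and binding partners proposed for the secreted trefoil and AGR proteins, 5 were higher, 2 lower and 0 passed, with a median of 0.10. Over all clusters 49.2% were higher. Only DMBT1 had an unadjusted p under 0.05 in limma, beside 5.64% of all clusters. DMBT1, a mucosal scavenger receptor protein that binds trefoil peptides, was 7.52, 6.96 and 7.68 in CTNNB1 siRNA cells, against 5.29, 6.36 and 6.38 in control siRNA cells. The groups did not overlap, with a log2 difference of 1.38 (SE 0.32) and 1.02 without control siRNA replicate 1, the lowest array, and its adjusted p in limma was 0.816. FCGBP, a mucus protein that binds TFF3, differed by 0.29 (SE 0.19) and EGFR by -0.36 (SE 0.26), both with overlap, and EGFR by -0.034 without CTNNB1 siRNA replicate 1.

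**Figure D4:**
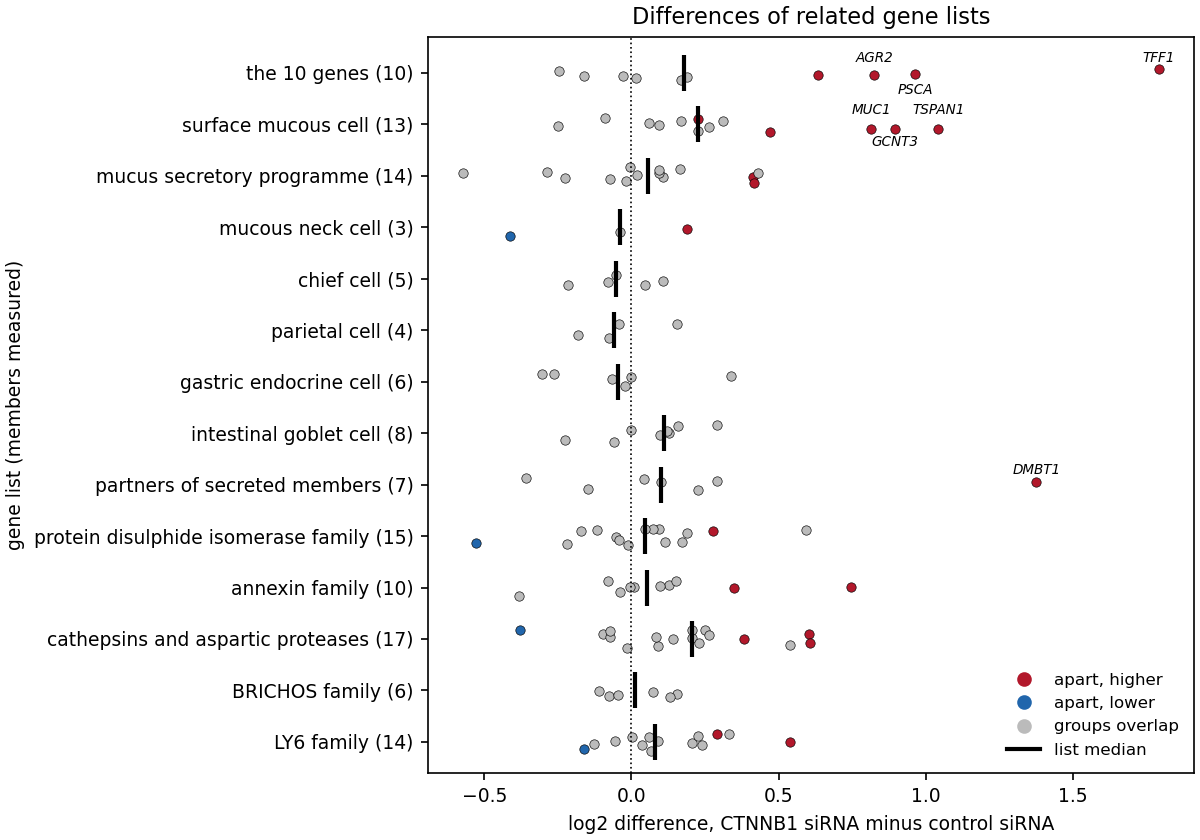
Log2 difference, CTNNB1 siRNA minus control siRNA (horizontal axis), of each measured gene in the lists named on the vertical axis with their numbers of genes; red and blue points have non-overlapping groups, and vertical bars mark list medians. Names are given to genes differing by more than 0.8. The medians of the 10 genes (0.18), of other surface mucous cell genes (0.23) and of cathepsins (0.21) lie right of the medians of the chief, parietal and endocrine lists, which lie close to 0. Those lists are mostly dim. The medians of the goblet cell (0.11) and partner (0.10) lists lie in between, and the epithelial markers (0.49) are not plotted.

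Markers of the other gastric cell types were mostly dim. The summed log2 level of 5 chief cell genes was 21.8 to 22.6 in CTNNB1 siRNA cells and 22.3 to 22.7 in control siRNA cells. That of 4 parietal cell genes was 14.6 to 16.4 in CTNNB1 siRNA cells and 15.2 to 16.6 in control siRNA cells, and all 4 were dim, the proton pump genes ATP4A and ATP4B among them. That of 6 endocrine genes was 25.6 to 26.6 in CTNNB1 siRNA cells and 26.3 to 26.7 in control siRNA cells, so the ranges overlapped for all 3 lists. Their medians were -0.051, -0.060 and -0.044 over 6 arrays and -0.0059, 0.042 and 0.038 without CTNNB1 siRNA replicate 1, so their signs rested on that array for the parietal and endocrine lists, and 0 of these 15 genes passed limma or had an unadjusted p under 0.05. In these lists CBLIF differed by -0.22 (SE 0.17), ATP4A by -0.18 (SE 0.24) and TPH1 by -0.26 (SE 0.16), and without CTNNB1 siRNA replicate 1 these were -0.076, 0.10 and -0.20. Of 3 mucous neck cell genes, A4GNT, which caps neck cell mucin glycans, differed by -0.41 (SE 0.17) with the groups apart and was dim, AQP5 by 0.19 (SE 0.13) and MUC6, the neck cell mucin, by -0.040 (SE 0.15), or 0.025 without CTNNB1 siRNA replicate 1. Of 8 intestinal goblet cell genes, 7 were dim, 5 were higher and 0 passed limma or had an unadjusted p under 0.05. Over all clusters 49.2% were higher and 5.64% had such a p. MUC2, the goblet cell mucin, differed by 0.13 (SE 0.13), CLCA1 by -0.23 (SE 0.18), or -0.057 without control siRNA replicate 3, and REG4, the 1 gene of that list that was not dim, by 0.12 (SE 0.20), or -0.047 without control siRNA replicate 2.

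The genes whose levels followed those of TFF1 and AGR2 most closely were taken from 9258 genes whose mean reached the median of all clusters, by Pearson's r over the 6 arrays, as a description. For TFF1 they were NECTIN2 (r = 0.998), ARHGEF18, KLF13, IRF8 and the cluster annotated as MIR139 (r = 0.990), and for AGR2 they were HPGD (r = 0.990), NBEAL1, CORO2A, IDH1 and CDKN1A (r = 0.981). All of these points share the division into 2 siRNA groups. IRF8, an interferon regulatory factor gene, was 8.63, 7.71 and 7.87 in CTNNB1 siRNA cells, against 7.06, 7.19 and 7.28 in control siRNA cells. Its highest value was on CTNNB1 siRNA replicate 1, as for TFF1, and picking genes by r with TFF1 favours that. The r values for TFF1 lean on that array, and none was computed without it. HPGD, a prostaglandin-degrading enzyme gene, was 9.14, 9.16 and 8.86 in CTNNB1 siRNA cells, against 8.52, 8.89 and 8.68 in control siRNA cells, and overlapped where AGR2 did not.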

How the data were processed

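Per the submitters' processing notes, the authors used RMA and Affymetrix Expression Console 1.1, and the table they deposited holds 1 log2 value per transcript cluster and array. RMA subtracts background and gives all arrays a common distribution of probe intensities, so a change shared by all transcripts is not visible. It also shrinks differences between arrays for clusters near background. That the scale is log2 was read off the values (0.918 to 14.3). Summarisation settings, build and annotation: not given in the sources used here. The number of arrays limits the precision.

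Of 33297 clusters, 19460 were paired with exactly 1 symbol and tested, 1754 with several and 12083 were unlisted. Symbols were updated through RefSeq (GRCh38.p14) for 19429. The cluster with the highest mean stood for a gene. No 2 arrays shared over 43 identical values.

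The groups follow the sample titles and were compared with limma 3.58.1 (lmFit, eBayes; R 4.3.3), CTNNB1 siRNA minus control siRNA, 2-sided, adjusted with Benjamini-Hochberg over 19460 clusters, threshold 0.05, with no filter, weights or block. Nothing says that replicates came from separate passages, so the p-values cover only the spread among these arrays, which may be technical. The alternatives were a dim filter, array weights, a variance trend, centring, a replicate block and leaving out each array. Simulated data held 100 changed clusters for each size of change. In them limma recovered 50.6% of clusters given a log2 change of 1 and 88.6% given 2, with 4.66% false calls. On the measured arrays CTNNB1 (log2 difference -1.27) and TFF1 (1.79) were not called, and CTNNB1 siRNA replicate 1 had an array weight of 0.226. The simulated rates therefore do not give the share of real changes found here. Same-numbered arrays had correlations of deviations of 0.0922, 0.120 and 0.0980, against -0.101 to 0.0279 for differently numbered arrays. No label says that the numbers mark pairs, so the main fit has no block. The fit with a replicate block is described below.

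The 10 genes and the 15 other lists (145 of 158 symbols measured with the 10 included) were chosen with earlier results of these data known. The rule for named genes was CTNNB1, the 10 genes and, per list, genes past the threshold or up to 3 with the smallest p, plus the 5 genes most like TFF1 and AGR2; others are said to be chosen by position or otherwise. Promoters come from RefSeq tables and cover 6 of the 10 genes. TFF1, TFF2 and TFF3 had no entry, and chromosome 8, which holds PSCA, was left out of the search.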

Additional observations from a re-analysis of the deposited data

How the results depend on the processing

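With the array weights, limma called 13 clusters, PSCA as 1 of the 10 genes, and CTNNB1 (log2 difference -1.12, adjusted p = 0.0219). CTNNB1 was not called over 6 unweighted arrays (0.232 in limma), with the replicate block (0.646) or without any 1 array (0.0520 to 0.937). Leaving out the dimmest 40% of clusters gave 0 calls (670 at an unadjusted p under 0.05), and the median of the 5 genes left was 0.83, the value of AGR2. That median supports nothing, since AGR2 and TFF2, with control means of 5.20 and 5.33, passed the lower limit of 5.362 only through their CTNNB1 siRNA arrays. With the replicate number as a block, limma gave 0 calls in all (1123 at an unadjusted p under 0.05), 0 among the 10 genes, of which 4 had an unadjusted p under 0.05. Each array's deviations correlated best with those of its own number, a hint from the data and not the design. Leaving out 1 array gave 0 to 10 calls in all and 0 to 1 among the 10 genes, with 695 to 1428 clusters at an unadjusted p under 0.05; the calls were made without CTNNB1 siRNA replicate 1. In those fits GKN1 lay between -0.14 and 0.042, CTSE between -0.44 and 0.11, TFF3 between -0.049 and 0.079, AGR3 between -0.0066 and 0.31, and TFF2 between 0.075 and 0.29. With array weights GKN1 was 0.061 and CTSE 0.016. The cause was not tested. TFF1, AGR2, PSCA and ANXA10 kept their direction in every alternative run, ANXA10 having no value under the dim filter, and so did CTNNB1. Their groups did not overlap, and then leaving out or weighting arrays cannot reverse a difference. The kept direction therefore adds no support for these genes. Each of the 10 genes has 1 cluster, so no other cluster could be tried. The brightness of the clusters limits GKN1, GKN2, AGR3, TFF3 and ANXA10. It also makes the sizes for AGR2 and TFF2 uncertain, since their control means lay below 5.362.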
